A study of Rattus norvegicus with 54 samples.

Results

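Surfactant and alveolar type 2 genes are described here in the lungs and right ventricles of rats raised at simulated high altitude or in room air. The 10 genes, chosen by symbol, were Sftpc, Sftpa1, Sftpb, Sftpd, Abca3, Lamp3, Napsa, Etv5, Lpcat1 and Slc34a2. Of these, 9 were present in each deposited table, among 12650 lung genes and 12199 right ventricle genes, and all 9 passed the filter on low counts in both tissues. Abca3, the lipid transporter of the lamellar body, had no row under that symbol in either table, so no value is given for it.

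Pulmonary surfactant is a film of phospholipid and specialised proteins that lowers surface tension in the alveolus and takes part in host defence. Alveolar type 2 cells make it, store it in lamellar bodies and secrete it, and they also renew the alveolar epithelium. The genes named above cover the secreted proteins, the machinery that matures and packs them, the synthesis of the lipid, a phosphate transporter and a transcription factor that maintains the cell type.

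The animals were Sprague Dawley rats of both sexes, sampled at 6 weeks of age and weaned on day 21. H-H rats were conceived, born and raised in a hypobaric chamber that simulated 9000 feet (inspired oxygen equivalent to 15%), and RA-RA rats went through the same stages in room air; the parents of each were acclimated to the same air before mating. Poly(A) RNA libraries were made from 29 lungs (14 H-H and 15 RA-RA, 7 males in each) and 25 right ventricles (14 H-H with 7 males and 11 RA-RA with 5 males). Each treatment comprised 2 litters (H-H litters 4HH and 3HH, RA-RA litters 6RARA and 4RARA), and p-values over animals measure the spread between animals and not between litters.

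Lung libraries held 1028679 to 23902634 counts and ventricle libraries 6116006 to 16326512. Lung library 4HH39 (H-H) stood apart, with a median Spearman correlation to the other lungs of 0.778, as did 6RARA68 (0.867) and 6RARA66 (0.880, both RA-RA). Library 6RARA66 was the one with 1028679 counts, had 59.2% of its mapped reads between genes and had the lowest RNA integrity number, 6.1. Lung library 4HH37 (H-H) held 17067 CPM (counts scaled to library size) of cardiac muscle markers, summed over 10 genes, against 27.04 to 251 CPM in the other lungs. The ventricle of the same animal held many lung transcripts. Results are therefore given with and without these libraries where they change.

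The 9 genes together took 2.88% to 4.43% of all counts in H-H lungs (median 3.28%) and 2.21% to 4.28% in RA-RA lungs (median 3.58%). In ventricles they took 0.00396% to 1.496% of counts in H-H and 0.00460% to 0.200% in RA-RA libraries. Per kilobase of deposited gene length, the medians over 29 lungs ordered the genes as Sftpc (18481 CPM per kb), Sftpa1 (5232), Sftpb (3105), Sftpd (1080), Slc34a2 (737), Lamp3 (464), Napsa (424), Lpcat1 (141) and Etv5 (30.3). Across libraries the ranges of all neighbours in that order overlapped except those of Sftpc (10165 CPM per kb at its lowest) and Sftpa1 (9394 at its highest), and the medians of Lamp3 and Napsa lay closest together. Counts come from whole lung pieces, so fewer alveolar type 2 cells and less RNA per cell cannot be told apart.

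The start regions of 4 genes are shown, chosen after their values were seen, because the members fell into those almost restricted to the lung libraries (Sftpb and Sftpa1) and those present in the ventricle as well (Etv5 and Lpcat1). They are from RefSeq on build GRCr8 and run from 250 bases before the annotated start to 50 bases after it; 7 of the 10 genes were matched. The regions are Sftpb at chr4:105917338-105917637 (forward strand), Sftpa1 at chr16:17042014-17042313 (forward), Etv5 at chr11:92113013-92113312 (forward) and Lpcat1 at chr1:31644897-31645196 (reverse strand, printed 5′ to 3′ along the gene). Capitals mark matches to a TATA-like element, to a core recognised by the lung factor NKX2-1, to a forkhead core and to a GC box, whose letters follow the sequences.
Sftpb: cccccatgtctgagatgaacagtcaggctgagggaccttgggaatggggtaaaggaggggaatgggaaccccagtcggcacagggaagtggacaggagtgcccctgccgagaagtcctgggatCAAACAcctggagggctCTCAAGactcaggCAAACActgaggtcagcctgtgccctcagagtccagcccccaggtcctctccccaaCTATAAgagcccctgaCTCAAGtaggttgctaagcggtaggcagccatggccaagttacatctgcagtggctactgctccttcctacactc
Sftpa1: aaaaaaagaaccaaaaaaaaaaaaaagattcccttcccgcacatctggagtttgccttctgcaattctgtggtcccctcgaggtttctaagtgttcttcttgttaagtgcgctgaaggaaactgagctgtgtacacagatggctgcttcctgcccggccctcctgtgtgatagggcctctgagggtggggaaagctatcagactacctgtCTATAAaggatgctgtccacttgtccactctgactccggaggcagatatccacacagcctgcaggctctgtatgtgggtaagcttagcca
Etv5: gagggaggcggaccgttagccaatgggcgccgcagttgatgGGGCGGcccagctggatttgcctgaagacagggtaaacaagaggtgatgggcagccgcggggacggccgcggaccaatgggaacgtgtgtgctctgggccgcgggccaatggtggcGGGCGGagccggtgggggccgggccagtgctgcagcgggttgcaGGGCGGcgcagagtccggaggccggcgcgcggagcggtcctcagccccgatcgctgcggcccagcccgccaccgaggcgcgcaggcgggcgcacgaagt
Lpcat1: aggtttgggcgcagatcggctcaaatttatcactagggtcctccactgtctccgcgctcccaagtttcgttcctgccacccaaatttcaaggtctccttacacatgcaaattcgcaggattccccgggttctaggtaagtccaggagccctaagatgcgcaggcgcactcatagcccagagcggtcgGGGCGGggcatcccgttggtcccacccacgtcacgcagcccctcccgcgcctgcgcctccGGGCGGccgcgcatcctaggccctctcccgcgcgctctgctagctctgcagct
Motifs were searched on both strands and no matches overlapped. Only the exact letters given were searched, so other forms of a motif are left unmarked. The TATA-like letters CTATAA began 41 bases before the start of Sftpb and 40 before that of Sftpa1, and 8.39% of all 33469 promoters of this length held it. Sftpb held the NKX2-1 core CTCAAG at 110 and 25 bases before its start (15.8% of promoters held it at least once and 1.43% at least 2 times) and the forkhead core CAAACA at 127 and 97 bases (17.8% and 2.70%). Etv5 held the GC box GGGCGG at 209, 93 and 49 bases before its start and Lpcat1 at 63 and 3 bases, a motif of 33.1% of promoters. Lamp3, whose sequence is not shown, held CAAACA at 143 and GGGCGG at 165 bases before its start. Etv5 and Lpcat1 had 36 and 25 CpG dinucleotides in these windows, against 3 in Sftpb and 5 in Sftpa1, beside a median of 7 over all promoters. CpG content did not divide the genes by tissue without exception: Slc34a2, with 30 CpG, was near 0 in most ventricles, and Lamp3, also near 0 there, had 3. A match is a string of letters in a window and says nothing of binding.

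The main comparison asked whether lungs grown at altitude differed from room-air lungs in surfactant gene expression. None of the 9 genes passed the test (edgeR's quasi-likelihood test with sex as a covariate, Benjamini-Hochberg adjustment over 12115 genes, threshold 0.05), where 242 genes, or 2.00%, were called. The median log2 fold change of the 9 was -0.18, beside 0.02 over all genes tested, and 2 of the 9 values were positive. The sign of that median depended on the room-air litter used, at 0.06 without litter 4RARA and -0.31 without litter 6RARA. H-H and RA-RA lungs overlapped for every one of the 9 genes, as they did for nearly all genes (the groups were separate for 0.0330% of genes). DESeq2 also called none of the 9. Sftpd alone had an unadjusted p under 0.05 (0.0338), and it is the one whose call changes with the libraries used.

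**Figure D1:**
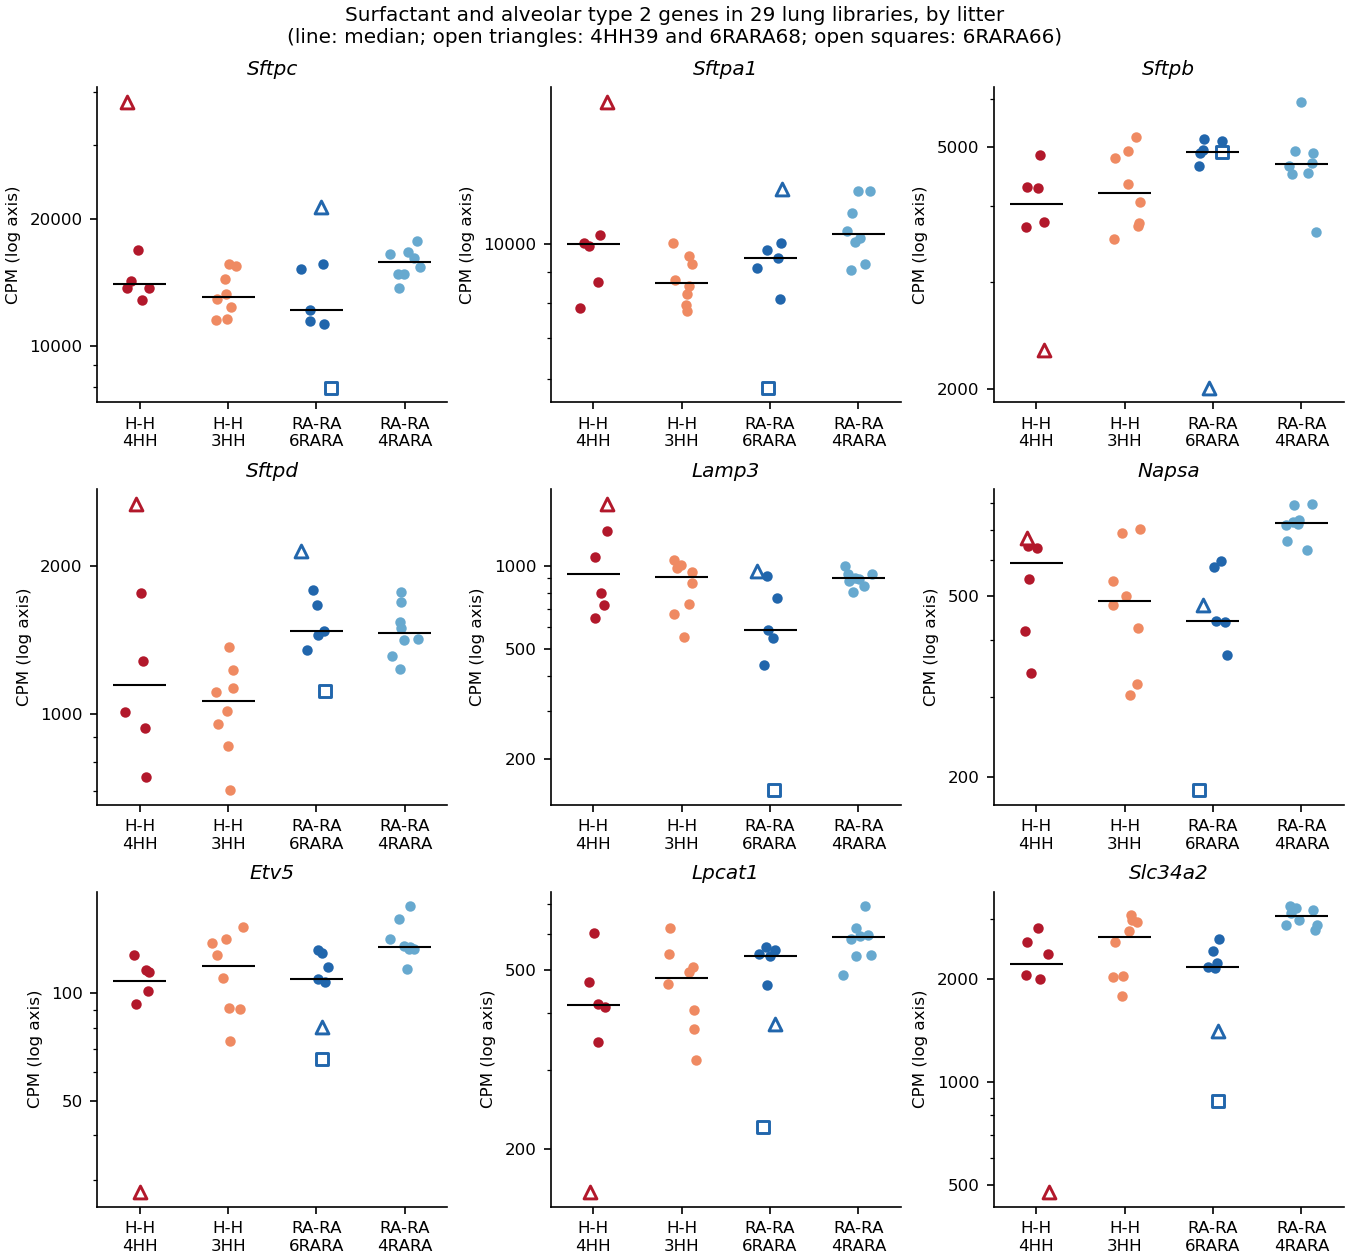
Level of each gene in each of 29 lung libraries, in CPM after scaling by trimmed mean of M-values (log axis), by litter, with the altitude litters 4HH and 3HH on the left and the room-air litters 6RARA and 4RARA on the right; lines are medians. Library 4HH39 (open triangle) is highest for Sftpc at 38051 CPM and lowest for Slc34a2 at 474 CPM, and Napsa is lower in all 6RARA lungs than in any 4RARA lung.

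The collectins, Sftpd and Sftpa1, encode surfactant proteins D and A, which bind microbes and lipid, and lie near each other on chromosome 16 of build rn6 (chr16:18753535-18766100 and chr16:18716019-18719404 as deposited). Sftpd ran from 701 to 2682 CPM in H-H lungs (median 1062) and from 1117 to 2153 CPM in RA-RA lungs (median 1479). The highest H-H value was that of 4HH39, and without it the highest was 1765 CPM. Both altitude litters had lower medians (4HH 1147 and 3HH 1062 CPM) than both room-air litters (6RARA 1479 and 4RARA 1463 CPM), though single animals overlapped.

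For Sftpd the log2 fold change, H-H over RA-RA, was -0.34 (SE 0.15, 95% interval -0.66 to -0.03, adjusted p = 0.31 by edgeR). Without 4HH39, 6RARA66 and 6RARA68 it was -0.48 (SE 0.11, adjusted p = 0.0117), the only one of the 9 genes called where 4.21% of genes were called in either direction and 2.26% were called lower. Leaving out 4HH39 alone gave -0.50 (SE 0.12, adjusted p = 0.0157, 3.09% of genes called), and leaving out its whole litter gave -0.55 (adjusted p = 0.0203, 1.93% called). Leaving out the other altitude litter, 3HH, gave -0.12 (SE 0.20, adjusted p = 0.79). With litter as a random effect in limma the value was -0.39 (adjusted p = 1.00). Within library batches 1, 2 and 3 the edgeR values were -0.31, -0.39 and -0.77 (adjusted p = 0.83, 0.91 and 0.20), and batch 3 held 1 H-H lung. The authors' deposited table lists Sftpd at -0.47 with a false discovery rate of 0.00876, the only one of the 9 under 0.05 in a table where 5.87% of genes were. The call depended on the libraries and on how litter was treated.

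Sftpa1 ran from 7760 to 17144 CPM in H-H lungs (median 9009) and from 5794 to 12312 CPM in RA-RA lungs (median 10042). Its log2 fold change was -0.06 (SE 0.12, interval -0.30 to 0.19, edgeR adjusted p = 0.91). Without the 3 libraries it was -0.17 (SE 0.07, adjusted p = 0.21). The groups overlapped.

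The hydrophobic proteins C and B are small peptides that spread the lipid film, and loss of protein B is lethal at birth in mice. Sftpc, on chr15:52211538-52214480 of rn6, ran from 11512 to 38051 CPM in H-H lungs (median 13760) and from 7949 to 21403 CPM in RA-RA lungs (median 15252). Its log2 fold change was 0.06 (SE 0.16, interval -0.26 to 0.38, edgeR adjusted p = 0.93), and the sign turned to -0.10 without the 3 libraries. As a fold, the interval ran from 0.835 to 1.31. It carries the spread between animals and not that between litters, so it does not bound the altitude effect.

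Sftpb, on chr4:100166896-100175938 of rn6, ran from 2317 to 5184 CPM in H-H lungs (median 4168) and from 2004 to 5932 CPM in RA-RA lungs (median 4874). Its log2 fold change was -0.18 (SE 0.12, interval -0.43 to 0.08, edgeR adjusted p = 0.61). The lowest library of each group was one of those that stood apart, 4HH39 in H-H and 6RARA68 in RA-RA. Without the 3 libraries the value stayed at -0.18 (SE 0.08) with adjusted p = 0.19.

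Napsa encodes napsin A, an aspartic protease that cleaves the precursors of proteins B and C, and Lamp3 encodes a membrane protein of the lamellar body and lysosome. Napsa ran from 303 to 702 CPM in H-H lungs (median 520) and from 187 to 798 CPM in RA-RA lungs (median 633), a log2 fold change of -0.20 (SE 0.17, edgeR adjusted p = 0.69). Without the 3 libraries it was -0.33 (SE 0.14, adjusted p = 0.20). Its sign depended on which room-air litter was the comparison, at 0.23 without 4RARA and -0.49 without 6RARA. Lamp3 ran from 551 to 1673 CPM in H-H lungs (median 908) and from 155 to 994 CPM in RA-RA lungs (median 879), and its 0.27 (SE 0.19, edgeR adjusted p = 0.62) was the largest positive value among the 9. Without the 3 libraries Lamp3 had 0.12 (SE 0.13, adjusted p = 0.67).

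Lpcat1 encodes the acyltransferase that remodels phosphatidylcholine into its saturated surfactant form. It ran from 161 to 618 CPM in H-H lungs (median 442) and from 224 to 692 CPM in RA-RA lungs (median 543). Its log2 fold change was -0.27 (SE 0.15, interval -0.57 to 0.03, edgeR adjusted p = 0.45), and -0.29 (SE 0.09, adjusted p = 0.0747) without the 3 libraries. Neither value passed the test.

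Slc34a2 encodes the sodium-phosphate cotransporter of the type 2 cell, which takes up phosphate from the alveolar space, and Etv5 encodes an ETS transcription factor that acts downstream of fibroblast growth factor (FGF) signals and maintains type 2 identity in mice. Slc34a2 ran from 474 to 3077 CPM in H-H lungs (median 2468) and from 879 to 3280.5 CPM in RA-RA lungs (median 2785), with a log2 fold change of -0.14 (SE 0.19, edgeR adjusted p = 0.85). Etv5 ran from 27.7 to 153 CPM in H-H lungs (median 112) and from 65.6 to 175 CPM in RA-RA lungs (median 132), with a log2 fold change of -0.22 (SE 0.16, edgeR adjusted p = 0.63). For both genes the lowest H-H value was that of 4HH39 and the lowest RA-RA value that of 6RARA66.

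**Figure D2:**
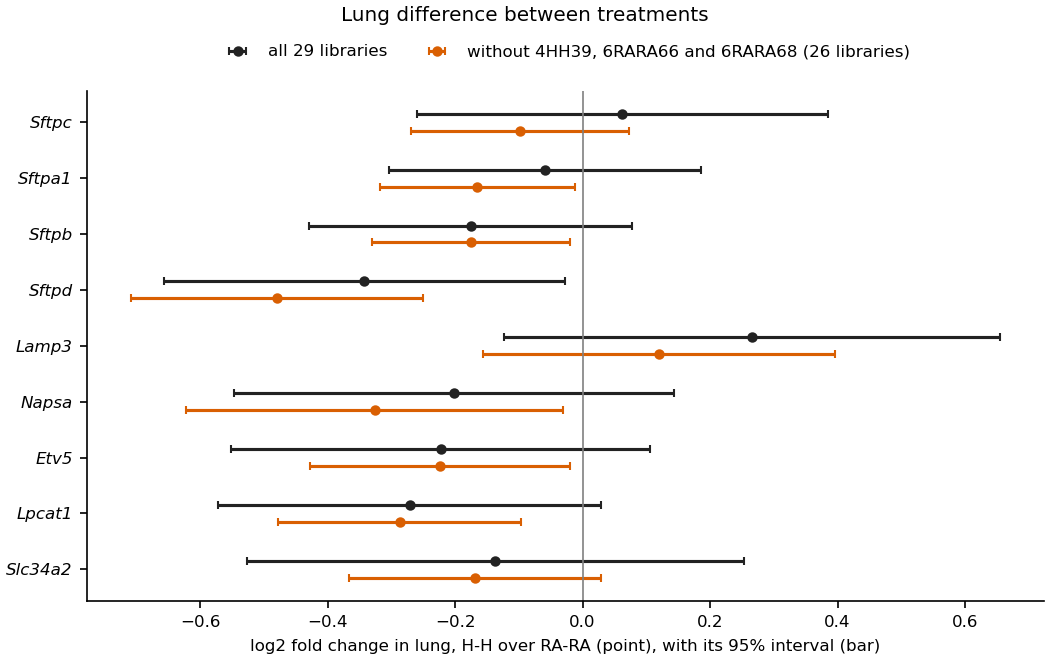
Log2 fold change in lung of each gene, H-H over RA-RA (point), with its 95% interval (bar), in all 29 libraries (black) and without 4HH39, 6RARA66 and 6RARA68 (orange). Intervals narrow without the 3 libraries, and Sftpd is the gene farthest below 0, at -0.34 and -0.48.

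Sex was compared in the same libraries. None of the 9 genes was called between males and females (edgeR, 0.0330% of genes called), with log2 fold changes, male over female, from -0.16 for Sftpc to 0.17 for Lpcat1. No gene was called for a treatment effect that differed between the sexes (0% by edgeR, against 9 genes by DESeq2), and the interaction terms of the 9 ran from -0.57 for Lamp3 to 0.20 for Sftpd. Their standard errors ran from 0.24 to 0.39.

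The litters of 1 treatment were compared because they show how far these genes vary with the exposure held constant. Between the altitude litters, 4HH over 3HH, none of the 9 was called (4.11% of genes by edgeR). The largest values were 0.43 for Sftpc (SE 0.22, adjusted p = 0.22) and 0.42 for Sftpd (SE 0.21, adjusted p = 0.23), and they were 0.12 and 0.15 without 4HH39. Both values were thus larger with library 4HH39 than without it.

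Between the room-air litters, 6RARA over 4RARA, 1 of the 9 was called lower, Napsa, where edgeR called 20.8% of genes in either direction and 10.7% lower. Napsa ran from 187 to 596 CPM in 6RARA lungs (median 441) and from 633 to 798 CPM in 4RARA lungs (median 725). The litters did not overlap. The log2 fold change was -0.71 (SE 0.20, adjusted p = 0.0143), and -0.60 (adjusted p = 0.0179) without the 3 libraries.

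Slc34a2 also ran lower in every 6RARA lung, from 879 to 2626 CPM (median 2173), than in any 4RARA lung, from 2785 to 3280.5 CPM (median 3061). Its log2 fold change was -0.62 (SE 0.24, adjusted p = 0.0673 by edgeR) and -0.39 (SE 0.12, adjusted p = 0.0185) without the 3 libraries, a setting in which 15.2% of genes were called lower. Separate litters were common, at 12.9% of all genes, beside 2 of these 9. Of the other 7 genes, Lamp3 had -0.52 (SE 0.25, adjusted p = 0.13), and the remainder lay between -0.41 for Etv5 and 0.08 for Sftpd.

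Other measures moved with the room-air litters. The 10 airway epithelial markers summed to 54530 CPM in 6RARA66 and 8739 to 22105 CPM in the other 6RARA lungs, against 5263 to 6976 CPM in 4RARA lungs. Of the 10, 7 were called higher, among them Scgb1a1, the club cell secretoglobin (1.73, SE 0.31, edgeR adjusted p = 0.000544), and none was lower. Of all genes, edgeR called 10.1% higher and 10.7% lower between these litters. The share of mapped reads in 3′ untranslated regions was 5.65% in 6RARA66 and 22.3% to 28.7% in the other 6RARA lungs, against 19.2% to 19.7% in 4RARA lungs. Alveolar macrophage markers, 9 genes, summed to 401 to 740 CPM in 6RARA and 853 to 1137 CPM in 4RARA lungs. Of 14 alveolar type 1 markers, 6 were called lower and 1 higher (median -0.29). Their part in the Napsa and Slc34a2 differences was not tested.

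Other genes of the same pathways were counted from lists, and most were not called between H-H and RA-RA lungs. Among 16 other alveolar type 2 markers tested, none was called in either direction (median -0.00), and the smallest p belonged to Sfta2, a secreted surfactant-associated protein, at 0.69 (SE 0.20, edgeR adjusted p = 0.0697). Sfta2 ran from 33.4 to 193 CPM in H-H lungs and from 21.4 to 67.1 CPM in RA-RA lungs. Without the 3 libraries it was called, at 0.55 (SE 0.12, adjusted p = 0.00775), as was Wfdc2, an airway-enriched protease inhibitor family member, at -0.53 (adjusted p = 0.0408). When each litter was left out in turn, Sfta2 was called in no fit and Wfdc2 only without litter 4RARA. Among 23 genes of surfactant phospholipid synthesis none was called (median 0.02), and Pcyt1a, the rate-limiting step of phosphatidylcholine synthesis, had the smallest p at 0.35 (SE 0.13, adjusted p = 0.18).

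Of 18 regulators of alveolar type 2 genes, edgeR called 1 higher and 2 lower, where 0.867% of all genes were higher and 1.13% lower; the list's median was -0.09. Etv4, the ETS factor closest to Etv5, ran from 17.4 to 36.2 CPM in H-H lungs (median 23.4) and from 8.64 to 23.4 CPM in RA-RA lungs (median 17.0), and rose by a log2 fold change of 0.50 (SE 0.12, adjusted p = 0.0236). Elf3, an epithelial ETS factor, ran from 21.0 to 46.5 CPM in H-H lungs and 36.2 to 83.5 CPM in RA-RA lungs and fell by 0.54 (SE 0.12, adjusted p = 0.0147). Foxa2, a forkhead factor that activates surfactant genes in mice, ran from 41.4 to 89.8 CPM in H-H lungs and 58.8 to 102 CPM in RA-RA lungs and fell by 0.38 (SE 0.10, adjusted p = 0.0447). The groups overlapped in each case.

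The 3 calls depended on the litters and settings used. Foxa2 was not called with relative log expression scaling (adjusted p = 0.0507), library totals alone (0.0754), no sex term (0.0512) or without 4HH37 (0.0814), and Etv4 was not called with library totals alone (0.0730). Without the 3 libraries that stood apart Foxa2 was not called (-0.33, adjusted p = 0.0560), while Foxa1, its close relative, was (-0.31, adjusted p = 0.0373). Foxa2 was called without litter 4RARA, and not without 6RARA (-0.21, adjusted p = 0.45), 4HH (-0.34, adjusted p = 0.12) or 3HH (-0.43, adjusted p = 0.15). Etv4 was called without 4HH or 6RARA but not without 3HH (0.42, adjusted p = 0.18) or 4RARA (0.37, adjusted p = 0.18), and Elf3, lower in each of these fits, was not called without 3HH (adjusted p = 0.0757) or 4HH (adjusted p = 0.0623). With litter as a random effect in limma the adjusted p of Etv4, Elf3 and Foxa2 was 0.93, 0.99 and 1.00.

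Etv4 was also the only one called of 14 genes of FGF signalling upstream of Etv5 (median -0.03). Of 17 genes of surfactant secretion and clearance, 1 was called, Pparg, a nuclear receptor needed for surfactant breakdown in alveolar macrophages, which ran from 27.5 to 67.003 CPM in H-H lungs and 12.2 to 35.8 CPM in RA-RA lungs and rose by 0.51 (SE 0.13, edgeR adjusted p = 0.0334). Pparg was not called without litter 4HH (0.36, adjusted p = 0.20) or 6RARA (0.36, adjusted p = 0.21), with library batch as a covariate (adjusted p = 0.0684) or with litter as a random effect in limma (adjusted p = 0.95). Alveolar macrophage markers, 8 tested, had no gene called (median 0.23). None of 14 alveolar type 1 markers (median 0.14) or 9 lung endothelial markers (median -0.09) was called.

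Markers of other tissues were counted beside these. The airway epithelial list had 1 gene of 10 lower, Bpifb1, a secreted airway protein, at -1.67 (SE 0.35, edgeR adjusted p = 0.00755), with a list median of -0.76. The sign of that median depended on the room-air litter used, at 0.18 without litter 6RARA and -1.31 without litter 4RARA. Bpifb1 was not called with litter as a random effect (limma, adjusted p = 0.52), nor by edgeR without litter 3HH (adjusted p = 0.0583) or 6RARA (adjusted p = 0.0520). The liver list had 1 of 4 higher, Serpina1, which lung also expresses, at 0.88 (SE 0.13, adjusted p = 7.4e-05), and it was not called with litter as a random effect (limma, adjusted p = 0.0971). Cardiac markers had a median of 3.66 with none of 10 called, beside the 17067 CPM of 4HH37 and at most 251 CPM in the other 28 lungs. Their part in the values of the surfactant genes was not tested.

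The same lists were counted between the room-air litters, in a comparison where 10.1% of genes were higher and 10.7% lower. Phospholipid synthesis had 2 higher and 8 lower of 23, among them Pcyt1a (-0.71), Gpam (-1.20), Elovl5 (-0.60), Acaca (-1.27) and Acly (-0.63), enzymes of phosphatidylcholine and fatty acid synthesis. Secretion and clearance had 7 lower of 17, among them Adora2b, an adenosine receptor (-0.70), Csf2rb, a receptor chain for the macrophage growth factor GM-CSF (-1.48), and Bach2, a transcriptional repressor that alveolar macrophages need for surfactant handling in mice (-1.21). Other alveolar type 2 markers had 1 higher, Wfdc2 (0.85), and 3 lower, Slc6a14 (-0.86), Kcnj15 (-0.87) and Egfl6 (-0.46), of 16. Regulators had 2 lower of 18, Erbb3 (-1.40) and Tfcp2l1 (-1.27). Alveolar type 1 markers had 1 higher, Igfbp2 (1.05), and 6 lower of 14, among them Akap5 (-1.13), Col4a4 (-1.03) and Ager (-0.34), a receptor abundant on type 1 cells.

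The libraries that stood apart did so in a gene-specific way. Their CPM are after scaling by trimmed mean of M-values, whose factor of 0.700 raised all genes of 4HH39 alike. In 4HH39, Sftpc, Sftpd, Lamp3 and Sftpa1 lay above their lung medians by 1.397, 0.99, 0.93 and 0.84 on the log2(CPM + 1) scale, while Sftpb, Lpcat1, Etv5 and Slc34a2 lay at -1.001, -1.66, -2.05 and -2.44. The ratio of Sftpc to Sftpb counts was 16.4 in 4HH39 and 10.7 in 6RARA68, against 1.62 to 4.11 in the other 27 lungs. The 4HH39 departure spanned genes with products in the same organelle, with Sftpc up and Sftpb down.

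The departures were set against gene length because the direction differed between short and long genes. Over 7491 genes with a median above 20 CPM, the correlation of a library's departure with log2 gene length was -0.72 in 4HH39 and -0.54 in 6RARA68, against -0.46 to 0.45 in the other 27 lungs; genes are not independent replicates, so no p is given. The 3 longest of the 9 genes, Slc34a2 (3492 bases), Lpcat1 (3608) and Etv5 (3897), were all low in both libraries. Sftpb, at 1494 bases, was low in both as well, while Sftpa1 (1825) and Lamp3 (1897), which are longer, were not. Length therefore did not order the 9 genes fully.

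Library 6RARA66 departed differently, with Lamp3 at -2.50, Napsa at -1.63, Slc34a2 at -1.55, Lpcat1 at -1.18, Sftpc at -0.86 and Sftpb at 0.08, and a correlation with length of -0.22. Lung 4HH37, which held cardiac transcripts, had all 9 genes between -0.44 and -0.07.

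**Figure D3:**
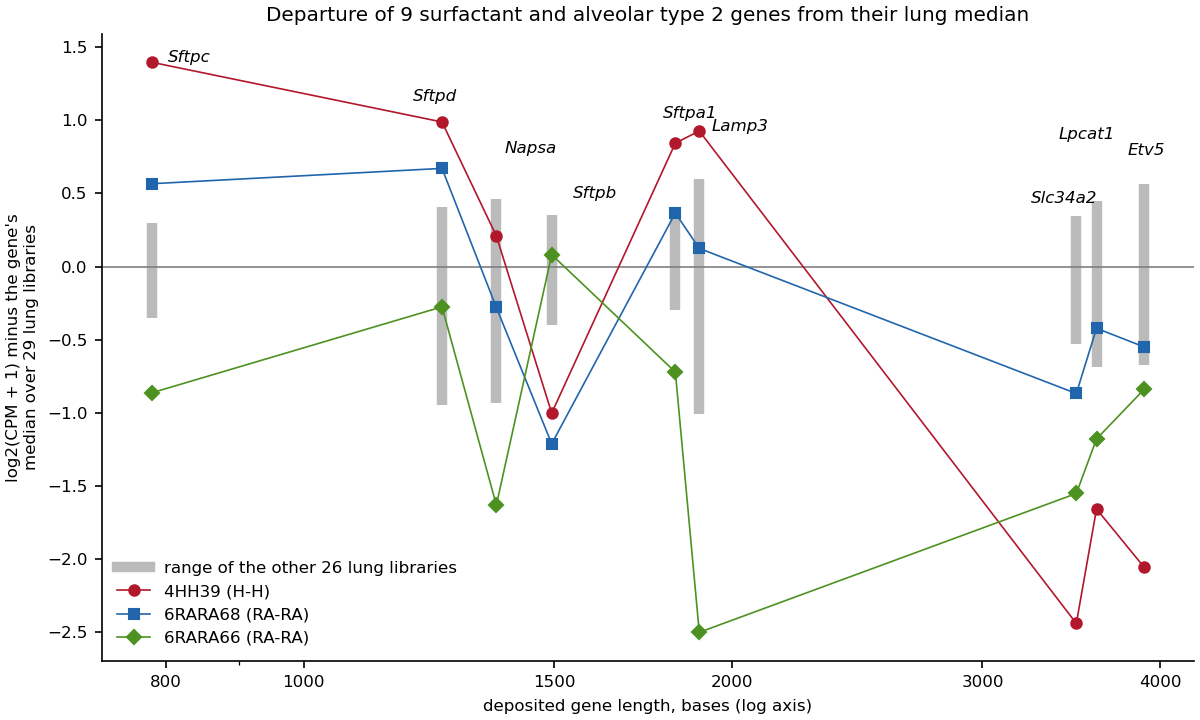
Departure of each gene from its median over 29 lungs, as log2(CPM + 1) (vertical axis), against deposited gene length in bases (log axis), in 4HH39, 6RARA68 and 6RARA66; grey bars span the other 26 lungs. In 4HH39 the values run from 1.397 for Sftpc to -2.44 for Slc34a2.

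Whether the genes vary together among animals was asked with litter and sex removed, over 36 pairs of genes. Over 29 lungs, 22 pairs correlated positively and 14 negatively (median Pearson r 0.24). Without 4HH37, 4HH39, 6RARA66 and 6RARA68, 34 of 36 were positive, with a median of 0.41 over 25 lungs. The exceptions were Sftpd with Lamp3 (r = -0.25) and Lamp3 with Napsa (r = -0.13).

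Sftpc with Sftpb changed sign. Over 29 lungs r was -0.53 (Spearman's rho -0.17, permutation p = 0.00822 for r and 0.38 for rho, adjusted over 36 pairs 0.0211 and 0.62), and r was 0.02 without 4HH39 and 6RARA68, the 2 libraries farthest from the median of Sftpc. Over 25 lungs r was 0.46 (rho 0.39, permutation p = 0.0214 and 0.0548, adjusted 0.0515 and 0.10), and 0.53 without the 2 libraries then farthest. The negative relation rested on 2 libraries.

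Etv5 with Slc34a2 was the closest pair over 29 lungs by Pearson r, with r = 0.92 and rho = 0.83 (permutation p = 1e-05 for each, the smallest that 100000 permutations give, adjusted 7.2e-05 and 0.00012), and r = 0.84 without the 2 farthest libraries. By rho the closest was Lpcat1 with Slc34a2 (rho = 0.85, r = 0.90, with the same permutation p and adjusted values, and r = 0.78 without the 2 farthest). Over 25 lungs Etv5 with Slc34a2 had r = 0.72 and rho = 0.62 (permutation p = 4e-05 and 0.00115, adjusted 0.00072 and 0.00828). Without the 2 farthest its r was 0.55. Lpcat1 with Slc34a2 then had r = 0.67 and rho = 0.46 (permutation p = 0.00027 and 0.0222, adjusted 0.00144 and 0.05). Without the 2 farthest its r was 0.48. Sftpb with Etv5 gave r = 0.73 and rho = 0.72 over 25 lungs (permutation p = 4e-05 and 0.00011, adjusted 0.00072 and 0.00288) and 0.76 without the 2 farthest. Within litters, without the 4 libraries, the median r over 36 pairs ran from 0.26 in 6RARA to 0.54 in 4HH.

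**Figure D4:**
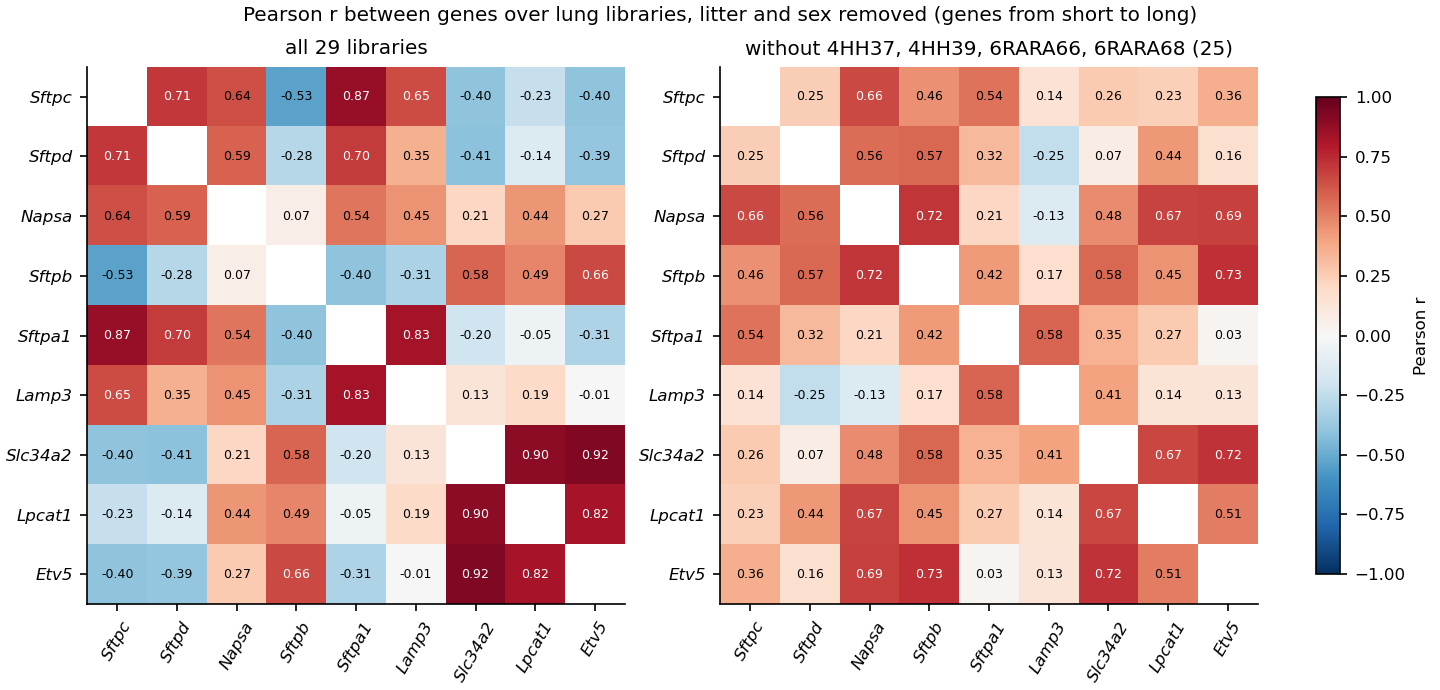
Pearson r between genes over lung libraries with litter and sex removed, genes ordered from short to long, in 29 libraries (left) and without 4HH37, 4HH39, 6RARA66 and 6RARA68 (right). Blue cells, 14 of 36 pairs on the left, are 2 of 36 on the right.

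The genes outside the set whose pattern was most like the mean of the 9 were named by Pearson r over the same residuals. Over 25 lungs they were Abcg1, a lipid exporter of macrophages and type 2 cells (r = 0.85), Shmt1 (0.84), C4bpa (0.84), Grb2 (0.84), Eno1 (0.83), Slc39a4 (0.83), Dusp4 (0.83), Acp5 (0.83), Mcu (0.81) and Ddost (0.81). Over 29 lungs they were Mcu (0.92), Zdhhc14 (0.89), Shmt1 (0.88), Lcp1 (0.88), Rab43 (0.87), Slc1a1 (0.87), Atic (0.86), Cass4 (0.86), Kctd21 (0.86) and Sdc1 (0.85). The 2 lists share Mcu and Shmt1. Each of the 9 was set against the mean of the other 8 in the same way, and over 25 lungs Sftpb was most like it (r = 0.81) and Lamp3 least (0.12), while over 29 lungs Napsa was most like it (0.72) and Sftpb least (0.13).

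In the right ventricle the same genes were read as a measure of lung tissue in each library, as percent of the mean lung CPM. In library 4HH37 (H-H) the 9 genes stood at 38.3% to 49.4% of their lung level (median 42.7%), with 111690 counts of Sftpc. In the 4 libraries of litter 6RARA (RA-RA) the median over the 9 was 1.18% (6RARA65), 1.84% (6RARA67), 6.04% (6RARA71) and 0.924% (6RARA72). In the other 20 ventricles the median over the 9 ran from 0.003% to 0.510%. Sftpc alone stood at 0.685% to 5.57% of its lung level in 6RARA ventricles and at 0.003% to 0.477% in the other 20.

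Sftpc was at 154, 253, 826 and 102 CPM in 6RARA65, 6RARA67, 6RARA71 and 6RARA72, all above the highest other ventricle apart from 4HH37, which was 4RARA38 at 70.7 CPM. Sftpa1 followed at 108, 170, 632 and 69.3 CPM in the same order. Library 3HH28 held 5 counts of Sftpc, 1 of Slc34a2 and 0 of Sftpa1, Sftpb, Sftpd and Lamp3, where a count of 0 allows up to 0.0024% of the lung level for Sftpa1 (3 counts, counting error only). The range over ventricles thus spanned from a few counts to 46.1% of the lung level for Sftpc.

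**Figure D5:**
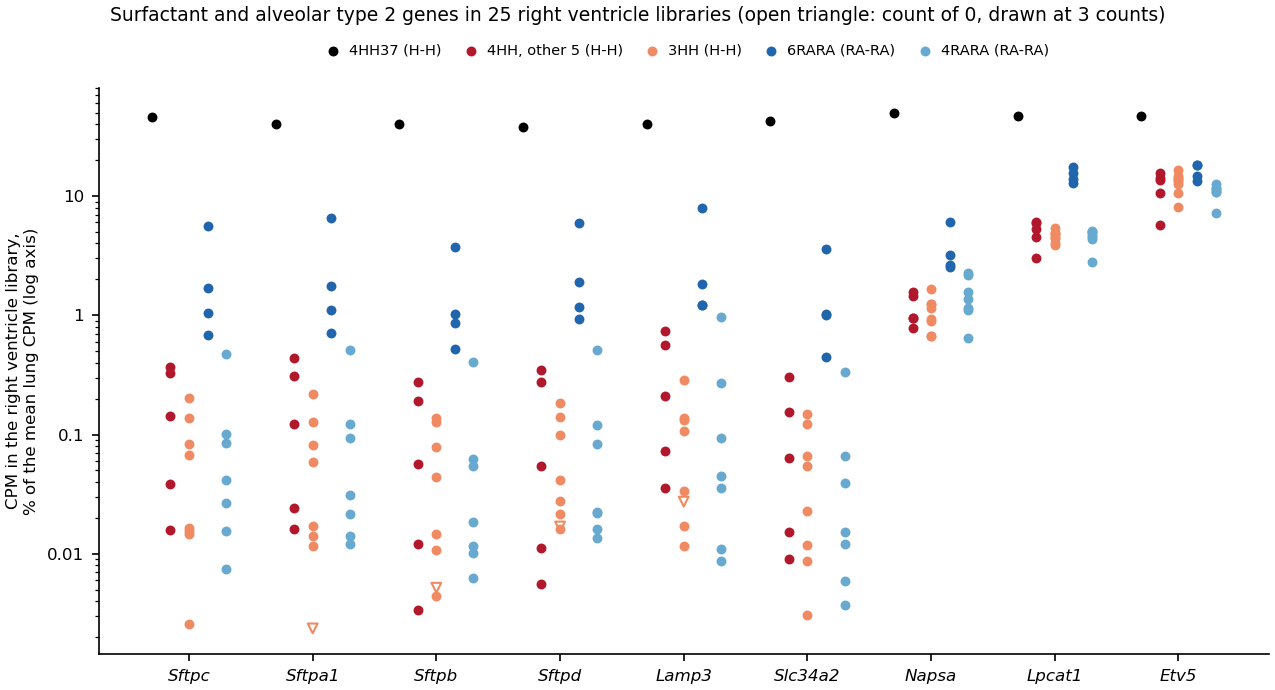
CPM of each gene in each of 25 right ventricle libraries, as percent of its mean lung CPM (log axis), by litter. For 6 genes 4HH37 lies between 38.3% and 46.1%, 6RARA libraries between 0.449% and 7.94% and the other 20 under 1%, while Napsa, Lpcat1 and Etv5 do not fall below 0.643% in any library.

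Napsa, Lpcat1 and Etv5 were present in every ventricle. In the 20 libraries outside 4HH37 and litter 6RARA, Napsa stood at 0.643% to 2.26% of its lung level, Lpcat1 at 2.78% to 6.01% and Etv5 at 5.68% to 16.7%. Library 3HH28, with 5 counts of Sftpc, held 83 of Napsa, 284 of Lpcat1 and 257 of Etv5. Lpcat1 in 6RARA ventricles stood at 12.9% to 17.5% of its lung level, above the 0.685% to 5.57% of Sftpc in the same libraries. Napsa stood at 2.54% to 6.04% in 6RARA ventricles, also above the other 20, while Etv5 at 13.3% to 18.4% overlapped them. In 4HH37 Napsa, Lpcat1 and Etv5 stood at 49.4%, 46.5% and 46.8%, beside 46.1% for Sftpc.

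Other lung markers followed the same libraries. The median of 14 alveolar type 1 markers was 46.5% of the lung level in 4HH37, 2.49% to 8.79% in 6RARA ventricles and 0.554% to 1.68% in the other 20. The median of 8 airway markers was 24.5% in 4HH37, 1.91% to 10.6% in 6RARA and 0.00269% to 0.475% in the other 20. The ratio of Sftpc to Sftpa1 counts in 20 ventricles with at least 20 counts of Sftpa1 was 1.24 to 2.42 (median 1.48), against 1.14 to 1.76 (median 1.48) in 27 lungs. The ratio of Sftpc to Sftpb was higher in ventricles, with a median of 4.53 over 14 libraries against 3.17 in lungs.

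Markers of heart and liver and measures of RNA quality in the 6RARA ventricles also differed from those in 4RARA. Cardiac markers, 11 genes, summed to 31632 to 46789 CPM in the 4 libraries against 91600 to 99464 CPM in 4RARA, and to 58548 CPM in 4HH37. Liver markers summed to 37.2 to 2202 CPM in 6RARA against 13.7 to 23.4 CPM in 4RARA. The 6RARA values were uneven, at 2202 CPM in 6RARA72, 294 in 6RARA71, 54.9 in 6RARA65 and 37.2 in 6RARA67. High sums were not confined to 6RARA, as H-H ventricles 4HH38 and 3HH21 held 224 and 44.6 CPM. Of the liver markers edgeR called 8 of 8 higher in 6RARA than in 4RARA (median log2 fold change 7.04), where 29.9% of all genes were called higher. RNA integrity was 5.8 to 7.4 in 6RARA against 6.5 to 9.6 in 4RARA, and 17.3% to 22.5% of mapped reads lay between genes in 6RARA against 9.28% to 12.3% in 4RARA. Their part in the levels of the surfactant genes was not tested.

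Ventricle comparisons therefore turn on those libraries. For H-H over RA-RA none of the 9 was called (3.04% of genes by edgeR), with a median log2 fold change of 0.17. Without 4HH37 the median was -2.76 and 2 genes were called lower, Sftpd (-3.15, adjusted p = 0.0442) and Napsa (-0.85, adjusted p = 0.0396), where 4.72% of genes were called, 3.70% lower. Without both 4HH37 and litter 6RARA it was 0.08. The authors' deposited table lists none of the 9 under a false discovery rate of 0.05, where 4.02% of genes were, and its values for Sftpd and Napsa are -2.11 and -0.68.

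For 4HH over 3HH none was called (1.47% of genes), with a median of 5.76 that was 0.90 without 4HH37. For 6RARA over 4RARA, 5 of the 9 were called higher, where edgeR called 29.9% of genes higher. They were Sftpa1 (3.98, SE 1.64, adjusted p = 0.0430), Sftpc (3.94, SE 1.64, adjusted p = 0.0442), Slc34a2 (3.90, SE 1.63, adjusted p = 0.0449), Sftpd (3.88, SE 1.53, adjusted p = 0.0349) and Lpcat1 (1.44, SE 0.41, adjusted p = 0.00445). Of the 9, 7 were higher in every 6RARA than in any 4RARA ventricle, as 46.5% of genes were separate in one direction or the other.

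Without 4HH37, 8 of the 9 were called higher between those litters (31.1% of genes), all but Etv5 (0.28, adjusted p = 0.18). Leaving out 1 library of 6RARA left 1 to 5 of the 9 called, where 53.6% to 55.2% of all genes were called in either direction. Without 6RARA71 the 1 was Lpcat1 (1.43, adjusted p = 0.0110), and Sftpc had 3.14 (adjusted p = 0.11).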

How the data were processed

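Gene counts, fold changes and library statistics were used as deposited for 29 lungs and 25 right ventricles. Reads had been aligned to rn6 with STAR 2.5 and counted with featureCounts 1.5.1 (Subread), per the submitters' processing notes, and the deposited counts are raw reads per gene. The authors' deposited tables also give log2 fold changes, p-values and false discovery rates, RNA integrity, library batch and shares of mapped reads. Rows with no gene name, 22 in lung and 21 in ventricle, named no member.

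Genes were filtered with filterByExpr (minimum count 10, minimum total 15), scaled by trimmed mean of M-values and tested with edgeR 4.0.16 (quasi-likelihood, robust; R 4.3.3), with treatment and sex as terms. P-values were adjusted by Benjamini-Hochberg over all genes and called under 0.05. Litters were compared in a fit with litter and sex. Alternatives used DESeq2 1.42.0, and limma 3.58.1 with litter as a random effect (correlation 0.209). Levels of single genes in lung and departures from the lung median are CPM after scaling by trimmed mean of M-values. Marker sums, ventricle CPM in the main text and percent of lung level used CPM from library totals. The fits were tested on simulated counts with no litter effect and no library that stood apart, so that test bears on neither. Members and lists were chosen with earlier results of these data known. Named genes were the members, the called genes of each list or its smallest p, and the 10 genes most like the members' mean.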

Additional observations from a re-analysis of the deposited data

Results flagged for a closer look

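In each litter and tissue, the highest and lowest library of every gene was set against the others by Dixon's criterion, which chance meets in about 1 in 20 groups. It was met in 23 of 72 groups, and 9 of these were ventricle library 4HH37, 6 ventricle 4RARA38 and 4 lung 4HH39. Levels below are CPM after scaling by trimmed mean of M-values, so ventricle values differ from those given earlier from library totals.

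Among 4HH lungs, 4HH39 was far above the others for Sftpc, at 38051 CPM against 12835 to 16868, and for Sftpa1, at 17144 CPM against 7836 to 10348. It was far below them for Etv5, at 27.7 CPM against 93.2 to 128, and for Slc34a2, at 474 CPM against 2005 to 2829. Among 6RARA lungs, 6RARA68 was far below the others for Sftpb, at 2004 CPM against 4639 to 5142.

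Among 4HH ventricles, 4HH37 was far above the others for all 9 genes. It had 6037 CPM of Sftpc, 3424 of Sftpa1, 1565 of Sftpb, 458 of Sftpd, 296 of Lamp3, 931 of Slc34a2, 242 of Napsa, 201 of Lpcat1 and 48.8 of Etv5. The other 4HH ventricles had at most 55.4 CPM of Sftpc, 9.09 of Napsa, 30.7 of Lpcat1 and 18.6 of Etv5.

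Among 4RARA ventricles, 4RARA38 was far above the others for Sftpc (70.7 CPM against 1.103 to 17.1), Sftpa1 (49.2), Sftpb (17.8), Sftpd (6.90), Lamp3 (8.10) and Slc34a2 (8.26). Ventricle 4RARA39 was far below for Lpcat1, at 15.6 CPM against 22.3 to 25.2. Among 6RARA ventricles, 6RARA71 was far above for Sftpb, at 141 CPM against 20.3 to 38.8, and for Lamp3, at 56.3 CPM against 8.43 to 13.3.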

How the results depend on the processing

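For H-H over RA-RA in lung, 242 genes were called, against 456 by DESeq2, 508 without 4HH39, 6RARA66 and 6RARA68, 449 without these and 4HH37, 1231 without litter 4RARA, 156 with library batch as a covariate, and 0, 2 and 0 within batches 1, 2 and 3. With litter as a random effect 10 were called, and 0 with counts summed over litters. One library left out at a time gave 178 to 374 genes and 0 to 1 member; 1 member was called without the 3 or the 4 libraries and without litter 4HH. Animal numbers 38, 39 and 40 recur in both treatments with correlations of 0.09, -0.29 and 0.16, so they do not pair animals; the replicate block called 0 genes, as did the same animals without it.

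Lung counts were 997 (DESeq2), 266 (without 4HH37) and 287 (without 4HH39) for 4HH over 3HH, and 9 (DESeq2) and 2 (without the 3) for sex by treatment; 2 members were called for 6RARA over 4RARA by DESeq2 and without the 3. Ventricle counts were 835 (DESeq2), 531 (without 4HH37), 18 (without litter 6RARA) and 34 (without both) for H-H over RA-RA, with 2 members called and a median of -2.75 by DESeq2 and -2.76 without 4HH37. For 4HH over 3HH they were 450 (DESeq2, 1 member) and 80 (without 4HH37). For 6RARA over 4RARA, DESeq2 called 1 member, 8 were called without 4HH37, and leaving out a 6RARA library gave 6365 to 6571 genes and 1 to 5 members.

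Signs turned, among values not called, for Sftpa1 (0.090 without litter 3HH, 0.061 without 4RARA, 0.15 and 0.18 in batches 1 and 3, 0.089 with the block, 0.14 for the same animals without it), Sftpc (-0.10 without the 3, -0.11 without the 4, -0.14 without 4HH, -0.047 without 6RARA, -0.20 in batch 2, and -0.10 to 0.10 leaving out 1 library), Sftpd (0.057, same animals without the block) and Lamp3 (-0.14, batch 2). Without 4RARA and in batch 3 they turned for Napsa (0.23, 0.67), Slc34a2 (0.24, 0.45) and Etv5 (0.025, 0.50), and in batch 3 for Lpcat1 (0.41). For 6RARA over 4RARA in lung, Sftpb had 0.065 without the 3 and 0.061 without 6RARA68, and Sftpd -0.011 without 6RARA68. As a mean and not a median of percentages, the lung level in ventricles was 2.16% in the other 20, 43.3% in 4HH37 and 4.42% in 6RARA; 4HH37 was 39.6% against lungs without the 4. The cause was not tested in any of these.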
